A study of Mus musculus with 7 samples.

Results

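Genes of the germline and of meiosis were followed across mouse embryonic stem (ES) cells, induced pluripotent stem (iPS) cells and the embryonic fibroblasts (MEFs) that iPS cells are made from. The 37 genes were chosen by name, as genes of the piRNA pathway (15 genes), of meiosis (13 genes) or as germ cell regulators (9 genes). They were picked with earlier results of these data known, so their counts are not independent of those results. Of these, 36 had a probe set with exactly 1 gene symbol and were measured, out of 19938 genes measured in all. Fkbp6 had no such probe set and has no value here.

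The samples were 7 cultures, each hybridised to 1 Affymetrix array. ES cells of OG2 background were grown in N2B27(2i), and are called ES cells in 2i (1 array). The iPS line O4-1 was grown in the same medium (iPS cells in 2i, 1 array). The iPS lines O4-1, O4-2 and O4-4 were grown in KSR (KSR lines, 3 arrays). MEFs of 129/OG2 background, isolated at 13.5 dpc (days after mating), were grown in iCD1 (1 array) and in FBS (1 array). OG2 mice carry a green fluorescent reporter driven by Oct4 regulatory sequence, so this transgene is part of the ES and MEF backgrounds. The iPS lines were made by infecting MEFs with Oct4, per the labels. N2B27 is a serum-free medium, 2i stands for inhibitors of MEK and GSK3, KSR is a serum replacement, FBS is fetal bovine serum and iCD1 is a defined medium used in reprogramming. Other label fields disagree with these titles and growth conditions: fibroblasts are named as the source of the ES sample, and iCD1 as a medium in the source of the iPS samples. The description of all 7 samples, MEFs and ES cells included, speaks of iPS cells 3 days after infection. Passage numbers were not given.

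Germ cells protect their genome with piRNAs, small RNAs bound by PIWI proteins that silence transposons, and many proteins of this pathway carry Tudor domains. Meiosis needs the synaptonemal complex, which holds paired chromosomes together, and meiotic forms of cohesin and of chromosome axis proteins. Most of these genes are silent in somatic cells, where DNA methylation and repressor complexes at their promoters keep them off, and some are known to be transcribed at low levels in mouse ES cells.

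Cell type markers separated the cultures titled as ES or iPS cells from those titled as MEFs. Whether a culture is of ES or iPS cells, and its line and medium, cannot be read from them. All 8 pluripotency markers were higher in KSR lines than in MEFs past the threshold, 6 of 7 fibroblast markers were lower, and the ES array labelled with a fibroblast source had a mean log2 level over the pluripotency markers of 10.25, against 4.24 and 4.20 in MEFs in iCD1 and in FBS. The mean log2 level of the fibroblast markers was 6.65 in ES cells, 6.17 in iPS cells in 2i, 6.72, 6.64 and 7.11 in KSR lines O4-1, O4-2 and O4-4, and 10.11 and 9.83 in MEFs in iCD1 and in FBS. None of the 8 markers of gonadal somatic cells passed the threshold, and their differences between KSR lines and MEFs lay between -0.45 and 0.34. Of 6 macrophage markers 0 were higher and 1 was lower, and of 6 endothelial markers 2 were higher and 2 were lower.

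The first comparison asked which germline genes differ between iPS cells and the fibroblasts. In KSR lines 21 of the 36 measured members rose against MEFs and 0 fell (limma over all genes, Benjamini-Hochberg adjusted p under 0.05, KSR lines against the mean of both MEF arrays). Over all genes 12.1% were called higher and 14.3% lower. The members that rose were 9 of 14 of the piRNA pathway, 7 of 13 of meiosis and 5 of 9 germ cell regulators. Their group medians of the log2 difference were 2.23, 2.20 and 3.005 over all measured members of each group, and 2.29 over the 36 members, against 0.00 over all genes (1 log2 unit is a 2-fold difference). The difference was above 0 for 35 of 36 members, and for 50.3% of all genes. In 31 of 36 members all 3 KSR lines lay above both MEF arrays, as did 25.6% of all genes. At an unadjusted p under 0.05 there were 30 of 36 members, against 39.0% of all genes in either direction. The spread behind these p-values is that of the 3 KSR lines, with 2 residual degrees of freedom. Without line O4-1 or without line O4-2 no member and no other gene passed the threshold, with 23 and 24 members below an unadjusted p of 0.05. When line O4-4 was left out, 14 members passed. Shares of all genes beside the 23, 24 and 14 are not given here, so these counts are not read as results about the members. Each value averages a whole culture, so fewer cells that express a gene and less RNA per cell cannot be told apart.

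**Figure D1:**
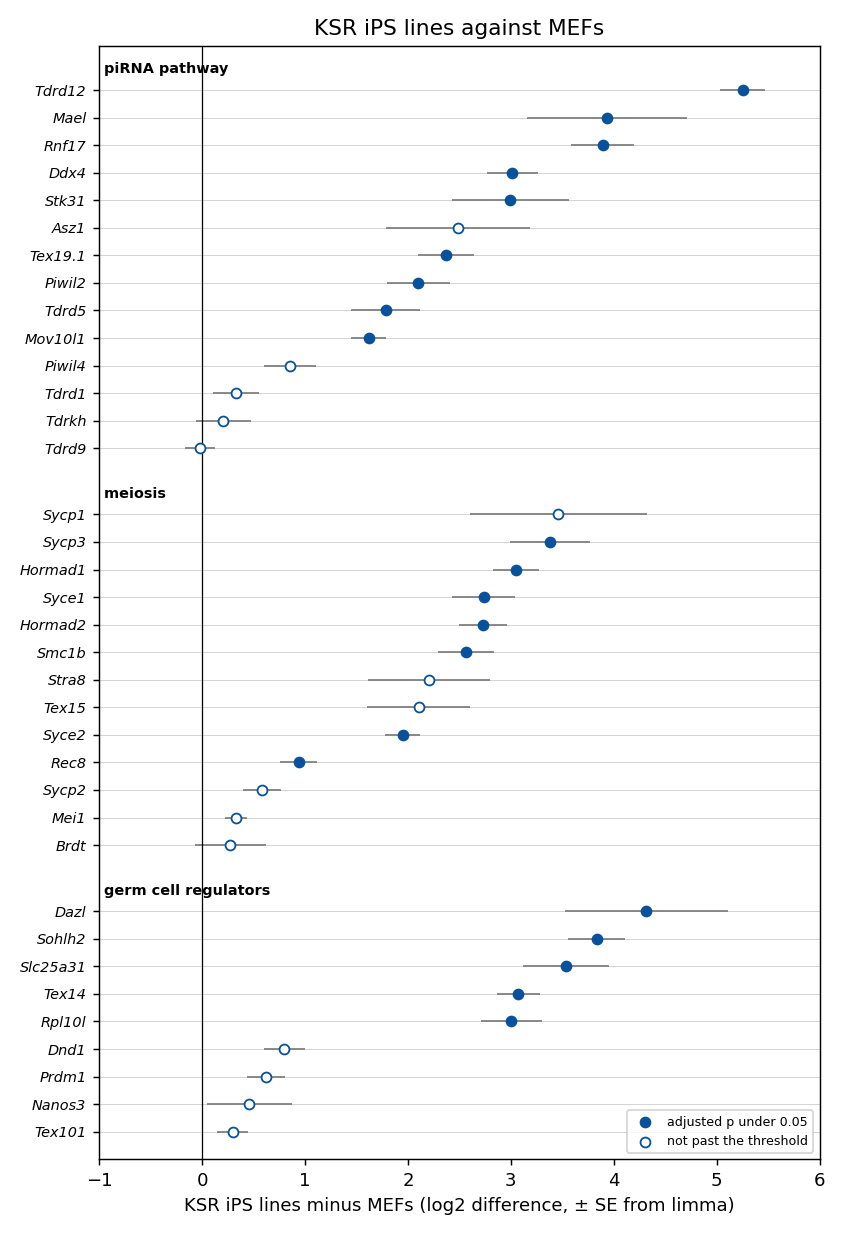
Log2 difference of KSR iPS lines from MEFs for each of the 36 members, with its standard error from limma as a line and the members grouped by role. Filled points are the 21 members past an adjusted p of 0.05, open points the others, and 35 of 36 points lie above 0.

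Promoter sequence was read for 32 of the measured members from RefSeq windows of 250 bases before to 50 bases after an annotated start (GRCm38.p6). Rnf17 and Piwil2, which rose in KSR lines, and Tex15 and Dnd1, which did not pass the threshold, have no window here and are left out of the counts. Repressors known to act on germline genes in mouse ES cells include a complex that holds MGA and MAX, which bind the E-box CACGTG, and E2F6, which binds TCCCGC. An E-box was found in 12 of 32 members (37.5%), against 9.5% of the 15614 genes tested that had a window. Either strand and overlapping matches were counted, and a gene counted once if any of its windows held the letters. Members also held more CG dinucleotides, with a median of 19.5 in a window against 16 over those genes. Among genes with at least 10 CG in a window the E-box shares were 40% (12 of 30 members) and 12.6% (of 10032 genes). The E2F type TCCCGC or its reverse complement GCGGGA was found in 13 of 32 members (40.6%), against 30.5% of all genes with a window, and in 43.3% against 44.2% at 10 or more CG. Among members that rose in KSR lines the E-box was in 8 of 19 and the E2F type in 12 of 19. Among members not past the threshold they were in 4 of 13 and in 1 of 13. These counts are descriptions of the letters in the windows, without a test.

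The 120 bases before the start follow for 9 members, with each E-box in capitals, 5′ to 3′ along the gene's own strand and taken from RefSeq (GRCm38.p6). The first 6 are members that rose in KSR lines and hold an E-box in this stretch, Brdt and Tdrd9 hold one but did not pass the threshold, and Tdrd12 had the largest rise and holds none. Hormad1 lies at chr3:95559557-95559676 (plus strand), Sycp3 at chr10:88459467-88459586 (plus), Ddx4 at chr13:112652311-112652430 (minus) and Stk31 at chr6:49395419-49395538 (plus). Slc25a31 lies at chr3:40708751-40708870 (plus), Syce2 at chr8:84872138-84872257 (plus, before the second of its annotated starts), Brdt at chr5:107331074-107331193 (plus), Tdrd9 at chr12:111971439-111971558 (plus) and Tdrd12 at chr7:35537716-35537835 (minus).
Hormad1: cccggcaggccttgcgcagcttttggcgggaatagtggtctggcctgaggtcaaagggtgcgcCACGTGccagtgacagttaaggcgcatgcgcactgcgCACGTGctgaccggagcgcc
Sycp3: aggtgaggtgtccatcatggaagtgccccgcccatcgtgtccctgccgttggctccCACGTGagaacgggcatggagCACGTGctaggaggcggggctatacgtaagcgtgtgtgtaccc
Ddx4: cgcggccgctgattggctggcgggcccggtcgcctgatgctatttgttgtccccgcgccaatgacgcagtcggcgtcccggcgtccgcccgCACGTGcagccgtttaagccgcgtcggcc
Stk31: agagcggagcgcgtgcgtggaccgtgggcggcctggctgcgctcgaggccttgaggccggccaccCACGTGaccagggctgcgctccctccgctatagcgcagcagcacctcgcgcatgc
Slc25a31: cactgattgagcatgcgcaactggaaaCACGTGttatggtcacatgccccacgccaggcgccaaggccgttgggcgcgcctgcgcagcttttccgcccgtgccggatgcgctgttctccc
Syce2: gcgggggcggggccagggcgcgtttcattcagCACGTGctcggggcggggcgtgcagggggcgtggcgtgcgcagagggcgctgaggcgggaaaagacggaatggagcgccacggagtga
Brdt: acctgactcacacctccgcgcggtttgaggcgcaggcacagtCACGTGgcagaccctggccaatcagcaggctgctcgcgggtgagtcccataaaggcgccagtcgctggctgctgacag
Tdrd9: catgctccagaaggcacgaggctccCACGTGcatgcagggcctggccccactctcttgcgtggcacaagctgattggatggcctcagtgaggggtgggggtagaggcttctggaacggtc
Tdrd12: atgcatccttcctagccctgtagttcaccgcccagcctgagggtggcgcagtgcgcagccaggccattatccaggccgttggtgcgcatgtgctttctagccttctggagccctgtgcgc
Hormad1 and Sycp3 carried 2 E-boxes each in this stretch, and the other members shown with a match carried 1. The letters CACGTG stood both before members that rose and before 4 that did not pass the threshold, Tdrd9, Brdt, Tdrd1 and Sycp1. Dazl and Sohlh2, both among the largest rises, held neither motif in their windows.

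**Figure D2:**
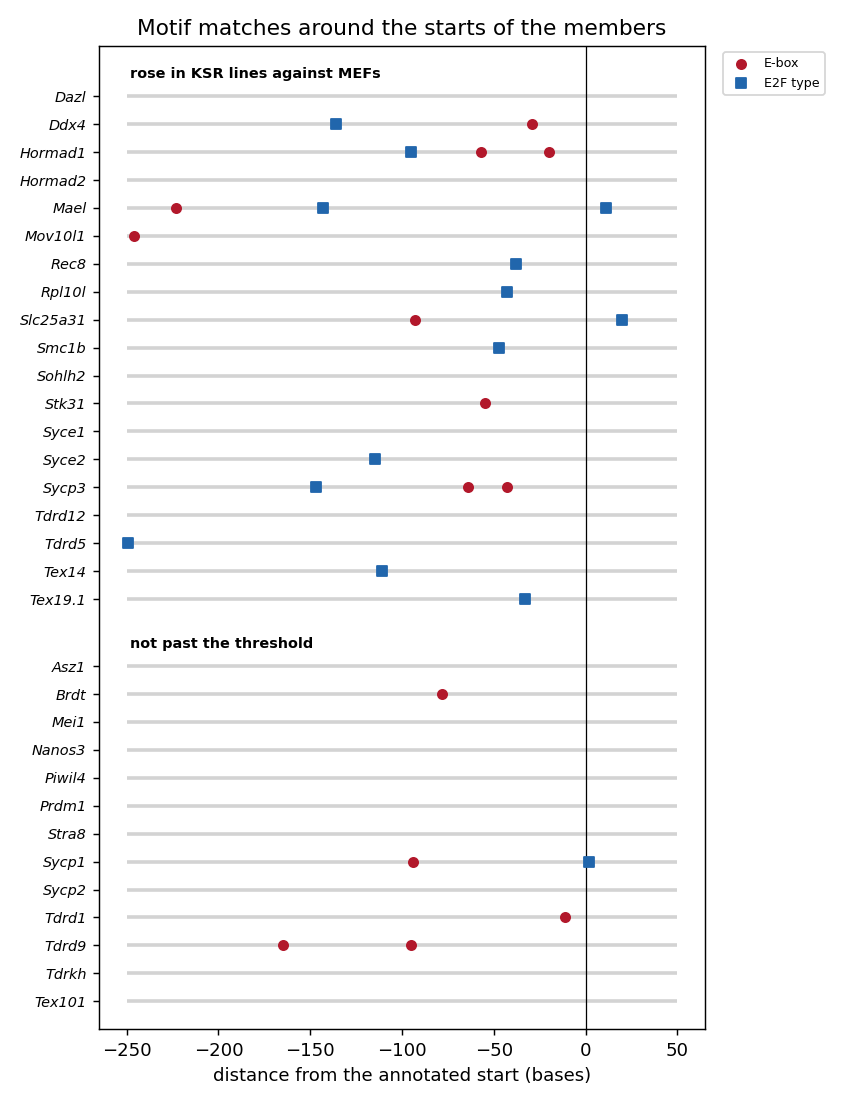
Position of E-box (circles) and E2F type (squares) matches in the first RefSeq window of each of 32 members, in bases from the annotated start, with 19 members that rose in KSR lines against MEFs above and 13 that did not pass the threshold below. In these first windows 11 members held an E-box and 13 an E2F type match.

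Among the piRNA genes Tdrd12, whose Tudor domain protein acts in secondary piRNA production, was far higher in every pluripotent culture than in fibroblasts. Its log2 level was 9.34 in ES cells in 2i, 9.06 in iPS cells in 2i, 8.82, 8.24 and 8.68 in KSR lines O4-1, O4-2 and O4-4, and 3.42 and 3.23 in MEFs in iCD1 and in FBS. KSR lines exceeded MEFs by 5.25 ± 0.22 (SE, limma adjusted p = 0.00659), the largest difference of any member. Rnf17, which encodes a RING finger and Tudor protein of male germ cells, had 7.29 in ES cells, 7.34 in iPS cells in 2i, 7.70, 6.82 and 7.31 in the KSR lines, and 3.32 and 3.45 in MEFs. The 5 pluripotent cultures did not overlap with MEFs for either gene. The rise of Rnf17 was 3.89 ± 0.31 (SE, limma adjusted p = 0.00884).

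Mael, Stk31 and Ddx4 rose too, but their pluripotent cultures were more spread. Mael encodes a protein of the germ cell granules where piRNAs are made, and had 4.97 in ES cells, 6.13 in iPS cells in 2i, 7.72, 6.82 and 5.45 in KSR lines O4-1, O4-2 and O4-4, and 2.78 and 2.69 in MEFs in iCD1 and in FBS. KSR lines exceeded MEFs by 3.93 ± 0.78 (SE, limma adjusted p = 0.0401), and its range over the KSR lines was 2.27 log2 units. Stk31, a Tudor and kinase domain gene, had 4.50 in ES cells, 5.75 in iPS cells in 2i, 6.46, 4.82 and 5.50 in the KSR lines, and 2.61 and 2.59 in MEFs. Its rise was 2.996 ± 0.564 (SE, limma adjusted p = 0.0363). For both genes ES cells had the lowest value among the pluripotent cultures. Ddx4, the Vasa RNA helicase whose promoter holds 1 of the E-boxes shown, had 5.20 in ES cells, 6.04 in iPS cells in 2i, 6.70, 6.61 and 6.06 in the KSR lines, and 3.44 and 3.45 in MEFs. It rose by 3.01 ± 0.25 (SE, limma adjusted p = 0.00912).

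The other piRNA genes past the threshold had smaller differences. Tex19.1, which takes part in transposon control in germ cells and placenta, had 6.09 in ES cells, 5.89 in iPS cells in 2i, 6.71, 5.96 and 6.49 in KSR lines, and 3.22 and 4.82 in MEFs in iCD1 and in FBS. Its rise was 2.37 ± 0.27 (SE, limma adjusted p = 0.0144), and the MEF arrays differed from each other by more than the 3 KSR lines did. Piwil2, the PIWI protein known as MILI, rose by 2.10 ± 0.31 (limma adjusted p = 0.0214). Tdrd5, needed for the granules of spermatids, rose by 1.78 ± 0.33 (limma adjusted p = 0.036), and Mov10l1, the helicase that feeds piRNA precursors into the pathway, by 1.62 ± 0.17 (limma adjusted p = 0.0123).

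Asz1, Piwil4, Tdrd1, Tdrkh and Tdrd9 did not pass the threshold. Asz1 encodes a scaffold of the mitochondrial surface where piRNAs are processed, and had 3.37 in ES cells, 4.50 in iPS cells in 2i, 5.94, 4.23 and 6.06 in KSR lines O4-1, O4-2 and O4-4, and 2.83 and 3.02 in MEFs. All pluripotent cultures lay above MEFs, with a difference between KSR lines and MEFs of 2.49 ± 0.70 (SE, limma adjusted p = 0.0837). Piwil4, the nuclear PIWI protein MIWI2, differed by 0.85 ± 0.25 (adjusted p = 0.0935). Tdrd1 and Tdrkh, Tudor partners of the PIWI proteins, differed by 0.33 ± 0.22 and 0.21 ± 0.27, and the helicase gene Tdrd9 by -0.02 ± 0.15. In the last 3 the KSR lines overlapped with the MEF arrays. The sign of the Tdrkh and Tdrd9 differences changed with the MEF array or the KSR line left out. Transcripts of the pathway were thus measured at unequal differences: the 2 PIWI genes among the members stood at 2.10 and 0.85, and the 4 genes named Tdrd at 5.25, 1.78, 0.33 and -0.02.

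**Figure D3:**
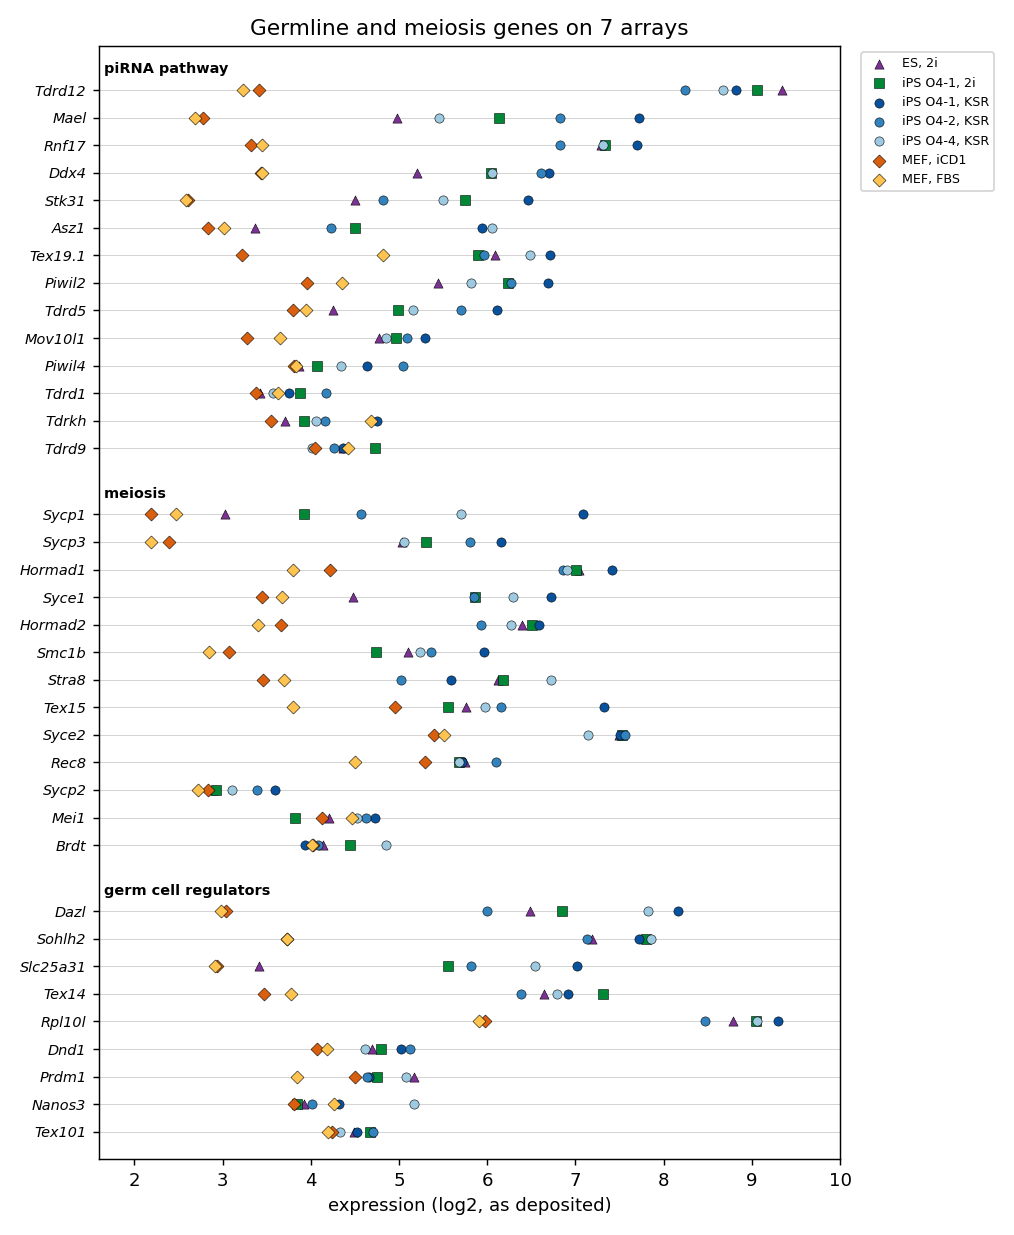
Deposited log2 expression of the 36 measured members on the 7 arrays, grouped by role, with 1 point per array (triangle ES cells in 2i, square iPS cells in 2i, circles KSR lines, diamonds MEFs). For 31 members all 3 circles lie right of both diamonds, and the scale of 1 gene cannot be read against another.

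Meiotic genes that rose came from the synaptonemal complex, the chromosome axis and cohesin. Sycp3 encodes a lateral element protein of the synaptonemal complex, and its log2 level was 5.04 in ES cells in 2i, 5.30 in iPS cells in 2i, 6.15, 5.81 and 5.06 in KSR lines O4-1, O4-2 and O4-4, and 2.40 and 2.19 in MEFs in iCD1 and in FBS. KSR lines exceeded MEFs by 3.38 ± 0.39 (SE, limma adjusted p = 0.0141). Hormad1 and Hormad2 encode HORMA domain proteins of the unsynapsed axis. Hormad1, with 2 E-boxes in the stretch shown, had 7.04 in ES cells, 7.01 in iPS cells in 2i, 7.41, 6.86 and 6.91 in KSR lines, and 4.22 and 3.80 in MEFs. A second probe set with that symbol had 6.08, 6.51, 7.30, 6.08, 6.47, 2.11 and 2.27 on the same arrays in the same order. By the first probe set Hormad1 rose by 3.05 ± 0.22 (SE, limma adjusted p = 0.00832), and Hormad2 rose by 2.73 ± 0.24 (SE, limma adjusted p = 0.00954). For both HORMA genes the values of ES cells and of iPS cells in 2i lay within the range of the KSR lines.

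Syce1 and Syce2, which encode central element proteins, both rose in KSR lines. Syce1 had 4.47 in ES cells, 5.86 in iPS cells in 2i, 6.73, 5.86 and 6.30 in KSR lines, and 3.44 and 3.67 in MEFs, with a rise of 2.74 ± 0.31 (SE, limma adjusted p = 0.0136). Syce2 had 7.498 in ES cells, 7.53 in iPS cells in 2i, 7.504, 7.56 and 7.15 in KSR lines, and 5.40 and 5.51 in MEFs, with a rise of 1.95 ± 0.17 (SE, limma adjusted p = 0.00978). ES cells were the lowest pluripotent culture for Syce1 and lay within the KSR lines for Syce2. The meiotic cohesin genes Smc1b and Rec8 rose by 2.57 ± 0.27 (limma adjusted p = 0.0125) and 0.94 ± 0.18 (limma adjusted p = 0.0364). For Rec8 the MEF arrays themselves differed, at 5.29 in iCD1 and 4.50 in FBS.

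The transverse filament gene Sycp1 had a larger mean difference than any meiotic member that passed, and the widest spread of any member. Its level was 3.03 in ES cells, 3.92 in iPS cells in 2i, 7.09, 4.57 and 5.71 in KSR lines O4-1, O4-2 and O4-4, and 2.19 and 2.47 in MEFs. The difference between KSR lines and MEFs was 3.46 ± 0.86 (SE, limma adjusted p = 0.0649). Stra8, the gene that retinoic acid induces at the entry into meiosis, had 6.13 in ES cells, 6.18 in iPS cells in 2i, 5.59, 5.02 and 6.73 in KSR lines, and 3.45 and 3.70 in MEFs. No pluripotent culture overlapped with MEFs for these genes, yet the difference for Stra8 was 2.20 ± 0.59 (SE, limma adjusted p = 0.077). Tex15, needed for double-strand break repair in spermatocytes, differed by 2.11 ± 0.50 (adjusted p = 0.0593), with 4.96 and 3.80 in MEFs in iCD1 and in FBS. Sycp2, Mei1 and Brdt, which encode a lateral element protein, a factor for double-strand breaks and a bromodomain protein of spermatids, differed by 0.58 ± 0.18, 0.33 ± 0.10 and 0.27 ± 0.34 and did not pass. The promoter window of Brdt holds an E-box, and no relation between motif and difference was tested.

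Dazl led the germ cell regulators. It encodes an RNA-binding protein that licenses germ cells for sexual differentiation, and had 6.49 in ES cells in 2i, 6.85 in iPS cells in 2i, 8.16, 5.997 and 7.83 in KSR lines O4-1, O4-2 and O4-4, and 3.04 and 2.98 in MEFs in iCD1 and in FBS. Line O4-2 stood below line O4-4 by 1.83 and below line O4-1 by 2.16 log2 units and still above both MEF arrays, and the rise was 4.32 ± 0.79 (SE, limma adjusted p = 0.0344). Sohlh2, a basic helix-loop-helix factor of early germ cell differentiation, had 7.18 in ES cells, 7.81 in iPS cells in 2i, 7.73, 7.13 and 7.85 in KSR lines, and 3.73 in both MEFs. Its rise was 3.83 ± 0.28 (SE, limma adjusted p = 0.00826). Slc25a31 encodes the ADP/ATP carrier of the testis and had 3.41 in ES cells, 5.56 in iPS cells in 2i, 7.01, 5.81 and 6.54 in KSR lines, and 2.93 and 2.91 in MEFs. The ES array lay below every KSR line for Slc25a31 and within their range for Dazl and Sohlh2. KSR lines exceeded MEFs by 3.54 ± 0.42 (SE, limma adjusted p = 0.0149).

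Tex14, a gene for the bridges between dividing germ cells, rose by 3.07 ± 0.21 (SE, limma adjusted p = 0.00794). Rpl10l, a retrogene copy of Rpl10 that works in male meiosis, rose by 3.005 ± 0.298 (SE, limma adjusted p = 0.0114), with 8.79 in ES cells, 9.04 in iPS cells in 2i, 9.30, 8.47 and 9.06 in KSR lines, and 5.97 and 5.91 in MEFs. The near-identical Rpl10 gave 12.63 to 12.84 on all 7 arrays, and whether its transcripts reach the Rpl10l probes was not tested. The members Dnd1, Prdm1 and Nanos3, regulators of primordial germ cells, did not pass the threshold. Dnd1 differed by 0.80 ± 0.20 (limma adjusted p = 0.065), Prdm1, which encodes BLIMP1, by 0.62 ± 0.19 (adjusted p = 0.0959) and Nanos3 by 0.46 ± 0.42 (adjusted p = 0.503). Tex101, which encodes a surface protein of testicular germ cells, differed by 0.30 ± 0.15 (adjusted p = 0.249). Nanos3 had 3.93 in ES cells, 3.84 in iPS cells in 2i, 4.32, 4.01 and 5.17 in KSR lines, and 3.81 and 4.26 in MEFs, so that the groups overlapped.

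Cultures in 2i were also compared with MEFs, each as 1 array assumed to vary like the KSR lines, and against the same MEF arrays as above. In iPS cells in 2i 12 of 36 members rose and 0 fell, where 6.24% of all genes were called higher and 8.85% lower, and the 12 were 4 of the piRNA pathway, 5 of meiosis and 3 regulators. In ES cells in 2i 10 members rose and 0 fell, where 5.37% of all genes were called higher and 7.46% lower, and the 10 were 3, 4 and 3 of these groups. In ES cells the piRNA genes past the threshold were Tdrd12, by 6.02 ± 0.30 (limma adjusted p = 0.0187), Rnf17, by 3.91 ± 0.41 (limma adjusted p = 0.0261), and Mov10l1, by 1.31 ± 0.23 (limma adjusted p = 0.0485). Of the meiotic genes Hormad1, Hormad2, Syce2 and Smc1b rose, by 3.03 ± 0.30, 2.86 ± 0.32, 2.04 ± 0.23 and 2.15 ± 0.37, and of the regulators Sohlh2, Tex14 and Rpl10l, by 3.45 ± 0.37, 3.02 ± 0.28 and 2.85 ± 0.40. In iPS cells in 2i Tdrd12 rose by 5.73 ± 0.30 (limma adjusted p = 0.0147), Rnf17 by 3.95 ± 0.41 (limma adjusted p = 0.0222), Ddx4 by 2.60 ± 0.33 and Mov10l1 by 1.502 ± 0.228. There Sycp3, Hormad1, Hormad2, Syce1 and Syce2 rose by 3.01 ± 0.52, 2.998 ± 0.299, 2.98 ± 0.32, 2.30 ± 0.41 and 2.08 ± 0.23, and Sohlh2, Tex14 and Rpl10l by 4.07 ± 0.37, 3.68 ± 0.28 and 3.10 ± 0.40. At an unadjusted p under 0.05 there were 22 members for iPS cells in 2i and 18 for ES cells, against 33.8% and 31.2% of all genes, in either direction. Of the 22, Mei1 was lower in iPS cells in 2i, at 3.82 against 4.12 and 4.47 in MEFs in iCD1 and in FBS. Its difference was -0.47. Leaving out any 1 KSR line left 0 calls of all genes in both comparisons, with 19 to 23 members at an unadjusted p under 0.05 for iPS cells in 2i and 16 to 18 for ES cells. Shares of all genes at that p are not given for these fits, so the member counts are not read as results. In ES cells Slc25a31 exceeded MEFs by 0.49 ± 0.56 (adjusted p = 0.641), Asz1 by 0.44 ± 0.94 (adjusted p = 0.816) and Sycp1 by 0.70 ± 1.15 (adjusted p = 0.757).

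The next question was whether pluripotent cultures of different medium and origin differed in these genes. Between ES cells in 2i and KSR lines both medium and origin change, so they cannot be told apart. The labels give no genetic background for the iPS lines. Against KSR lines no gene was called in ES cells in 2i, nor in iPS cells in 2i (0% of 19938 genes each, limma). At an unadjusted p under 0.05 there were 5 members for ES cells, against 8.76% of all genes (1746), and 1 member for iPS cells in 2i, against 6.72% (1339). Both comparisons use the same KSR lines. The 5 members for ES cells were Slc25a31, Syce1, Ddx4, Tdrd5 and Mei1, all with lower values in ES cells, at differences of -3.04 ± 0.53, -1.82 ± 0.39, -1.25 ± 0.31, -1.41 ± 0.42 and -0.42 ± 0.13 (limma adjusted p = 0.571 for each). The 1 member for iPS cells in 2i was Mei1, at -0.81 ± 0.13 (adjusted p = 0.727).

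The ES array lay below all 3 KSR lines for 19 of 36 members, where 27% of all genes did, and above all 3 for 2, Tdrd12 and Prdm1, where 26.3% did. By group the 19 were 10 of 14 piRNA genes, 7 of 13 meiotic genes and 2 of 9 regulators. Among genes of the same pathways outside the members, ES cells lay below all KSR lines for 3 of 13 piRNA genes, 11 of 27 meiosis genes and 6 of 18 regulators. Median differences of ES cells from KSR lines were -0.71 for the piRNA genes, -0.41 for the meiotic genes and -0.23 for the regulators, and 0.02, -0.17 and 0.04 for the genes outside the members in the same order. The iPS array in 2i lay below all 3 KSR lines for 13 members, where 23.7% of all genes did, and above all 3 for Tdrd9, Tdrd12 and Tex14, where 27.4% did. Its median difference from KSR lines was -0.14 over the 36 members, and that of ES cells -0.42. In lists without germline genes these counts were unequal. Of 17 genes of repressors that act on germline promoters, ES cells lay below all KSR lines for 10 and iPS cells in 2i for 9. For the 8 pluripotency markers the counts were 0 and 0, and for the 7 fibroblast markers 3 and 5. For the 8 gonadal somatic markers they were 2 and 1, and for the 6 macrophage and the 6 endothelial markers 1 and 1 each.

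**Figure D4:**
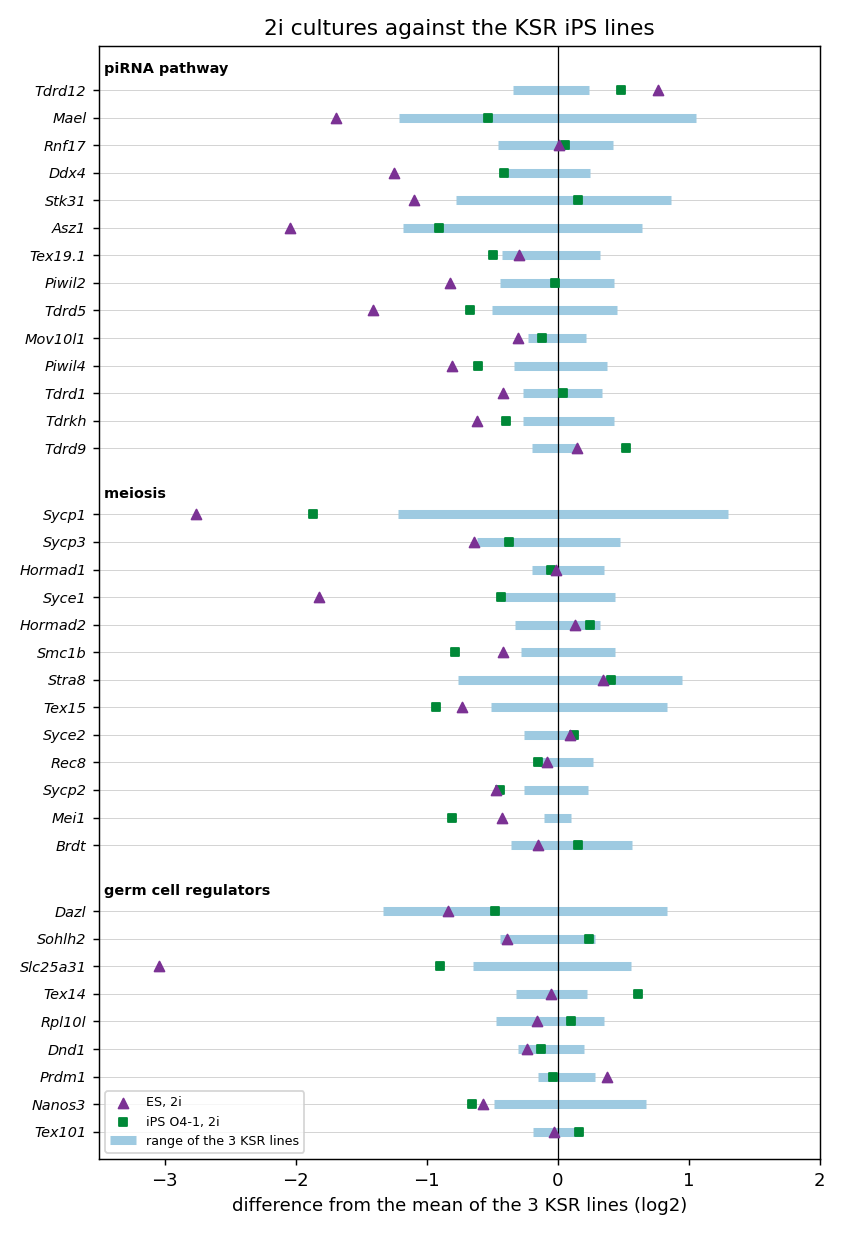
Difference of ES cells in 2i (triangles) and of iPS line O4-1 in 2i (squares) from the mean of the 3 KSR lines, in log2 units, with a bar for the range of the KSR lines. Triangles lie left of the bar for 19 of 36 members, and the farthest is Slc25a31 at -3.04.

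Set side by side within 2i, ES cells and iPS cells are 1 array each, with no replicate and no test. In 5 members the ES value was lower by 2-fold or more and in 0 it was higher, where 0.306% of all genes were that much lower and 0.672% that much higher. Of the 13, 27 and 18 genes of the same pathways outside the members, 0 were that much lower in ES cells. The 5 members were Slc25a31 (3.41 in ES cells, 5.56 in iPS cells), Syce1 (4.47 and 5.86), Stk31 (4.50 and 5.75), Mael (4.97 and 6.13) and Asz1 (3.37 and 4.50). Of the 36 members 27 were lower in ES cells than in iPS cells in 2i by any amount, as were 51.5% of all genes. None of the 5 is among the 15 members whose mean over the arrays reaches the median of all genes. The fibroblast markers, at 6.65 in ES cells and 6.17 in iPS cells in 2i, were higher in the culture with the lower germline values, and their part in the result was not tested.

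Line O4-1 is the only line grown in both media, again with 1 array each. In 2i 8 members were lower than in KSR by 2-fold or more and 0 were higher, where 0.953% of all genes were that much lower and 0.481% that much higher. Sycp1 differed most, with 3.92 in 2i and 7.09 in KSR. Tex15 had 5.56 in 2i and 7.32 in KSR, and Mael 6.13 in 2i and 7.72 in KSR. The others were Slc25a31, Asz1, Dazl, Smc1b and Tdrd5, at differences of -1.45, -1.44, -1.31, -1.22 and -1.13. The KSR array of this line was itself the highest of the KSR lines for many members, so the same 8 values in 2i can be read against the other lines. Sycp1, Tex15, Slc25a31, Smc1b and Tdrd5 in 2i lay below all 3 KSR lines, while Mael, Asz1 and Dazl in 2i lay within the range of the KSR lines. Outside the members 1 of 13 piRNA genes, 2 of 27 meiosis genes and 3 of 18 regulators were lower by 2-fold or more in 2i than in KSR. The same held for 3 of 17 genes of repressors that act on germline promoters. All 7 fibroblast markers were also lower in line O4-1 in 2i, 2 of them by 2-fold or more, at a mean of 6.17 in 2i and 6.72 in KSR, and their part in the result was not tested.

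KSR lines differed among themselves in many of these genes. The range over the 3 lines had a median of 0.72 log2 units for the 36 members, against 0.30 over all genes, and reached 2-fold in 10 of 36 members, where it did in 3.60% of all genes. It also reached 2-fold in 4 of 8 pluripotency markers and 3 of 7 fibroblast markers, with median ranges of 0.88 and 0.66, and in 2 of 13, 4 of 27 and 5 of 18 piRNA genes, meiosis genes and regulators outside the members. The 10 members were Sycp1, Mael, Dazl, Asz1, Stra8, Stk31, Tex15, Slc25a31, Nanos3 and Sycp3, with ranges between 1.09 and 2.52. Line O4-1 had the highest value for 24 of 36 members, where it did for 30.8% of all genes. Lines O4-2 and O4-4 were highest for 6 members each, where they were for 36.7% and 36.8% of all genes. The highest line was O4-1 for 11 of 14 piRNA genes, 9 of 13 meiotic genes and 4 of 9 regulators. Line O4-2 was lowest for 7 of 9 regulators, and line O4-4 for 9 of 14 piRNA genes, where they were lowest for 35.0% and 36.7% of all genes. The 6 members highest in line O4-4 were Asz1, Stra8, Brdt, Sohlh2, Prdm1 and Nanos3, with Stra8 at 6.73 and Nanos3 at 5.17 there. The fibroblast markers, at a mean of 6.72, 6.64 and 7.11 in lines O4-1, O4-2 and O4-4, were highest in line O4-4, and their part in these differences was not tested. No replicate of a single line in KSR was measured, so a difference between lines cannot be told apart from one between cultures.

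MEFs in iCD1 and in FBS, 1 array each, differed by 2-fold or more in 3 members. Tex15 was higher in iCD1, at 4.96 against 3.80 in FBS, where 1.70% of all genes were that much higher. Tex19.1, at 3.22 in iCD1 and 4.82 in FBS, and Tdrkh, at 3.55 and 4.68, were lower in iCD1, where 0.998% of all genes were that much lower. For Tdrkh the value in FBS was as high as that of the highest KSR line to within 0.1 log2 units. Over all 36 members the mean log2 level was 3.67 in MEFs in iCD1 and 3.74 in FBS.

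Genes of the same pathways outside the 37 members were counted in the same way for KSR lines against MEFs, where 12.1% of all genes were called higher and 14.3% lower. Of 13 further piRNA genes 4 rose and 1 fell. Those that rose were Morc1, which silences transposons in male germ cells, by 4.03 ± 0.36, Pnldc1, the trimmer of piRNA ends, by 3.48 ± 0.19, Gpat2 by 1.55 ± 0.17 and Pld6, a mitochondrial nuclease of the pathway, by 1.48 ± 0.12. The Tudor gene Tdrd7 fell by 2.02 ± 0.14 (limma adjusted p = 0.00802), with 4.25, 4.51 and 4.55 in KSR lines and 6.57 and 6.34 in MEFs. It is therefore a gene of this pathway with lower values in the pluripotent cultures. Of 27 further meiosis genes 11 rose and 0 fell, with the largest rises in Ccnb1ip1, a crossover factor, by 4.53 ± 0.18, Hsf2bp, a BRCA2 partner, by 4.17 ± 0.15, Tex11 by 3.42 ± 0.30 and the cohesin gene Stag3 by 2.70 ± 0.32. Of 18 further germ cell regulators 6 rose and 1 fell. The rises past the threshold were led by Tfap2c at 3.27 ± 0.38, Dppa3 at 2.76 ± 0.27, Taf7l at 2.68 ± 0.59 and Dmrt1 at 2.60 ± 0.44, and the oocyte factor Lhx8 fell by 0.45 ± 0.10. The largest difference in this list was 3.58, in a gene that did not pass. Tfap2c and Dppa3 are also known from pluripotent cells. Median differences of these lists were 0.64, 1.009 and 0.58, each smaller than the 2.29 over the 36 members, against 0.00 over all genes. The members and these lists were chosen with earlier results of these data known, so no conclusion is drawn from the larger median.

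Of 17 genes of repressors that act on germline promoters, 10 rose in KSR lines against MEFs and 0 fell, beside the same 12.1% and 14.3% of all genes. For 1 of the 17, Ehmt2, a histone methyltransferase gene named after its values were seen, all KSR lines lay below both MEF arrays, with a difference of -0.37 ± 0.12 that did not pass the threshold. Dnmt3b, a de novo DNA methyltransferase, rose by 3.57 ± 0.56, with 7.01 in ES cells, 7.14 in iPS cells in 2i, 8.56, 8.84 and 7.31 in KSR lines O4-1, O4-2 and O4-4, and 4.57 and 4.76 in MEFs. Its value in line O4-4 was close to those of the 2i cultures. Pcgf6, L3mbtl2 and Rybp, subunits of a polycomb complex known for germline repression, rose by 2.82 ± 0.16, 2.30 ± 0.22 and 1.74 ± 0.21. The median difference of the list was 1.14. No relation between repressor and germline transcripts was tested.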

How the data were processed

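Total RNA (100 ng) of 7 cultures was labelled with biotin and put on Affymetrix arrays, as the labels' protocols state. The authors deposited 1 log2 value for each probe set and array. The tools were RMA and Partek according to the submitters' processing notes, in versions not given here. Values were used as deposited, with no filter. No signal over background comes with them, so low levels are not separated from background, and the number of arrays limits the precision. Of 28853 probe sets 21789 had 1 gene symbol in the platform annotation, 1621 several and 5443 none. Per gene the probe set with the highest mean over the arrays was kept, which left 19938 genes (999 had several), and all 36 members measured matched a RefSeq symbol.

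Groups came from titles and growth conditions. A linear model of 5 groups was fitted with limma 3.58.1 (R 4.3.3). Its two-sided p-values were adjusted by Benjamini-Hochberg over every gene, with a threshold of 0.05. Residual degrees of freedom were 2 and prior ones 1.62 (prior SD 0.13), so groups of 1 array were assumed to vary like the KSR lines. The labels do not say how the cultures were separated, so p-values measure only the spread between these lines, which may be technical. Comparisons of 1 array with 1 have no test and count differences of 2-fold or more. The labels name no batch or date. The fit was tested on simulated data. Promoter windows came from RefSeq (GRCm38.p6), and the letters CACGTG and TCCCGC were searched with Python 3.11.15. Sequence was shown only for the 120 bases before a start.

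The 37 members, the further lists and the motifs were chosen with earlier results of these data known. Named genes are any member and, of each further list, at most the 4 largest differences past the threshold, plus all of a direction with 5 or fewer. Alternatives were other probe set rules, normalizations, filters, prior variance and MEF groups, and leaving out each KSR line.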

Additional observations from a re-analysis of the deposited data

How the results depend on the processing

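No member past the threshold in KSR lines against MEFs changed direction under any alternative that was run. Of those not past it, Tdrkh (0.21) became -0.36 against MEFs in FBS alone and Tdrd9 (-0.02) became 0.17 against MEFs in iCD1 alone. With 1 KSR line left out, Tdrkh ranged between -0.0063 and 0.34, Tdrd9 between -0.095 and 0.080 and Brdt (0.27) between -0.0098 and 0.45, and none of these values passed the threshold. The cause was not tested. For KSR lines against MEFs, leaving out 1 KSR line gave 0 to 14 called members, 0 without line O4-1 and 0 without line O4-2. The other alternatives gave 15 to 27. The count was 15 against MEFs in FBS alone, and also 15 when genes under the median were left out, which tested 15 members. That filter uses the mean over all 7 arrays, so members low in MEFs passed it through their pluripotent cultures, and the count supports nothing. The count was 26 after quantile normalization and with both MEF arrays as 1 group, and 27 with each array centred on its median. Shares of all genes under each alternative are not given in this section, so its counts are not read as results about the members. For iPS cells in 2i against MEFs the count of 12 became 20 with centred arrays, 8 to 18 under the others, and 0 to 0 with a KSR line left out. For ES cells in 2i against MEFs the count of 10 became 6 against MEFs in FBS alone, 8 to 13 under the others, and 0 to 0 with a KSR line left out. Those fits keep 1 residual degree of freedom. With genes under the median of all gene means left out, which kept 15 members, 0 were 2-fold lower in ES than in iPS cells in 2i, and 2 in line O4-1 in 2i than in KSR. Chosen after seeing the data, other normalizations and probe set rules gave 19 members with ES cells below all KSR lines each time, 10 to 13 for iPS cells in 2i, and 24 highest in line O4-1. Shares of all genes were not set beside these counts, nor beside the unadjusted counts that follow. For iPS and ES cells in 2i against KSR lines, 0 members were called under every alternative, with 0 to 5 and 2 to 10 at an unadjusted p under 0.05. No paired analysis was possible because the KSR and 2i iPS groups share only line O4-1.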

Other observations

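Dnmt3l, a cofactor of de novo DNA methylation that germ cells need, was named after its values were seen. It had 6.74 in ES cells in 2i, 7.06 in iPS cells in 2i, 9.16, 8.99 and 5.54 in KSR lines O4-1, O4-2 and O4-4, and 3.71 and 3.94 in MEFs in iCD1 and in FBS. KSR lines differed from MEFs by 4.07 ± 1.39 (SE, limma adjusted p = 0.125). Line O4-4 stood below the 2i cultures for this gene, while O4-1 and O4-2 stood above them.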
